A study of Homo sapiens with 30 samples.

Results

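The adrenergic TFs are a set of 10 genes that includes transcription factors of the adrenergic neuroblastoma (NB) state and regulators that act with such factors: HAND2, GATA2, GATA3, TBX2, TBX3, ISL1, KLF7, KLF13, EYA1 and MAB21L2. They were taken by symbol from a table of 26228 genes, which lists all 10. Poly(A) RNA was sequenced from SH-EP, an established human NB cell line of mesenchymal identity without MYCN amplification, and from 4 stable SH-EP lines that carry a retroviral MYCN transgene under an exogenous promoter, as WT MYCN or as the phosphorylation-deficient mutants T58A, S62A and T58A S62A (called the double mutant). Every line was treated for 6 h with DMSO or with 1 µM CYC065, an inhibitor of CDK9 and CDK2, in 3 libraries per group, giving 10 groups and 30 libraries. The sources do not say whether a line is 1 clone or a pool, whether SH-EP carried an empty vector, or whether the 3 libraries of a group came from separate cultures, so that the p-values measure the spread between these libraries, which may be technical. Each value is 1 line in its treatment, so that an effect of the transgene and one of how a line was made cannot be told apart. All 6 SH-EP libraries carry a sequencing index that is also given for a MYCN line library, so that a difference in sequencing pool cannot be told apart from the difference between SH-EP and those lines.

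In the developing sympathetic nervous system HAND2 and GATA factors drive the noradrenergic program, and in adrenergic NB they belong to a core regulatory circuitry (CRC), a set of TFs that sit at one another's enhancers and keep up one another's transcription. Mesenchymal NB cells use another set of factors. CDK9 phosphorylates RNA polymerase II and releases it into elongation, so that short-lived transcripts are the first to be lost when it is inhibited.

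Promoter sequence is shown for the members whose window before the annotated start holds a motif bound by factors of the set itself. In the RefSeq promoter table (build GRCh38.p14), 15 start windows of 6 members were found: HAND2, GATA2, GATA3, ISL1, KLF7 and KLF13. TBX2, TBX3, EYA1 and MAB21L2 had no entry. The 250 bases before each start were matched exactly and uniquely to GRCh37. Capitals mark the GATA motif AGATAA, read on either strand (TTATCT is the same motif on the other strand), and the E-box CAGATG of the kind bound by HAND factors with E proteins. The windows are chr4:174451381-174451630 on the minus strand for HAND2, chr5:50679032-50679281 on the plus strand for ISL1, and chr15:31618788-31619037 on the plus strand for KLF13, each printed in the direction of transcription.
HAND2: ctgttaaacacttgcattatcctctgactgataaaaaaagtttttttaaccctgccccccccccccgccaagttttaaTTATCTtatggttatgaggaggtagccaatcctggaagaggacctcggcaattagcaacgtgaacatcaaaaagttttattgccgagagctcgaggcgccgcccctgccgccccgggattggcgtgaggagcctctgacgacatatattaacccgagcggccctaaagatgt
ISL1: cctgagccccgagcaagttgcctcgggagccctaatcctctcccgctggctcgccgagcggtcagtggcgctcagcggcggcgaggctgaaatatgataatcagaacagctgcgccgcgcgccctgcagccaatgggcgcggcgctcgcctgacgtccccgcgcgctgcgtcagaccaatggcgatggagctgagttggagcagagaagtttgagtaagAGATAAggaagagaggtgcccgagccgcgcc
KLF13: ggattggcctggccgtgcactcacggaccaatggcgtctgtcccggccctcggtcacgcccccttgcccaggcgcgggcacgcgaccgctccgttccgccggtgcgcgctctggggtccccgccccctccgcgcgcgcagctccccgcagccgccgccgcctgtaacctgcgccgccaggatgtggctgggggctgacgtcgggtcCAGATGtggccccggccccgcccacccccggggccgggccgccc
AGATAA was present in 2 of the 15 windows, those of HAND2 and ISL1, against 9.17% of 35116 promoter windows of the same length. CAGATG was present in 1, that of KLF13, against 12.2%. The canonical E-box CACGTG, the motif of MYC and MAX pairs, was present in 2, at 1 start each of GATA3 and KLF7, against 6.34%. CAGATG and CACGTG share the letters CA and TG at their ends but no match of one is a match of the other, and a match describes letters only.

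The transgene separated the lines. MYCN was listed at 0 in all 6 SH-EP libraries. In DMSO it was at 11.7, 13.3 and 13.7 FPKM (fragments per kilobase of transcript, relative to the reads of the library) in WT, at 7.27, 8.44 and 9.84 FPKM in T58A, at 5.08, 5.51 and 6.59 FPKM in S62A and at 9.06, 15.7 and 15.7 FPKM in the double mutant. The MYCN lines thus did not carry the transgene at 1 level, and the S62A libraries lay below those of the other 3 lines.

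The levels of the adrenergic TFs, compared per length in FPKM as deposited, spanned a wide range in parental SH-EP cells. In DMSO, TBX2 (109 ± 3.45 FPKM, SD, n = 3) and HAND2 (81.8 ± 3.27 FPKM) were highest, followed by GATA2 (15.2 ± 0.879 FPKM), GATA3 (8.74 ± 0.646 FPKM) and MAB21L2 (6.84 ± 0.589 FPKM). EYA1 (4.24 ± 0.365 FPKM) and KLF7 (3.70 ± 0.277 FPKM) overlapped in their libraries, and KLF13 (2.41 ± 0.107 FPKM), ISL1 (1.39 ± 0.390 FPKM) and TBX3 (0.635 ± 0.162 FPKM) followed. In SH-EP the TFs that define the adrenergic state were thus present unevenly, and 3 markers of that state, PHOX2A, the noradrenaline-synthesis enzyme DBH and CHGA, were listed at 0 in all SH-EP libraries. In the MYCN lines, PHOX2A stayed at 0, DBH reached at most 0.0300 FPKM (WT, DMSO), and CHGA at most 0.0823 FPKM (the double mutant, DMSO). TH, the first enzyme of noradrenaline synthesis, was between 0.0499 and 0.202 FPKM in SH-EP DMSO, and CHGB, a granule protein, between 0.362 and 0.700 FPKM. Over the 8 sympathoadrenal markers, of which HAND2 and GATA3 are members, the sum was 87.8 to 92.9 FPKM in SH-EP DMSO and 55.6 to 95.2 FPKM in the DMSO libraries of the MYCN lines. HAND2 carries most of it. EYA1 is a coactivator and MAB21L2 is not a classical DNA-binding factor, so that TF is used loosely for both.

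Markers of other cell types were read beside these values. The summed level of 6 mesenchymal markers (PRRX1, SNAI2, FOSL1, VIM, FN1 and CD44) was 3245 to 3379 FPKM in SH-EP DMSO and 1649 to 2390 FPKM over the 12 MYCN line DMSO libraries, with no overlap. VIM carries most of that sum (2496 FPKM in SH-EP), and FOSL1 ran the other way, at 93.1 FPKM in SH-EP and 109.8 to 153.1 FPKM in the means of the MYCN lines. The summed level of 6 Schwann cell markers was 5.73 to 7.005 FPKM in SH-EP and 0.610 to 2.23 FPKM in the MYCN lines, with SOX10 at 0 throughout. With CYC065 the mesenchymal sum was 5746 to 5822 FPKM in SH-EP and 2419 to 3116 FPKM in the MYCN lines. These sums are of FPKM as deposited, a share of the library, and do not show a rise per cell. When scaled to spike-ins added by cell number, PRRX1, SNAI2 and FOSL1 changed with CYC065 by means of -2.03, -1.37 and -0.80 (log2) over the 5 lines. VIM, FN1 and CD44 were not read on that scale. The part of these markers in the results was not tested. In bulk RNA fewer cells of a type and less RNA per cell cannot be told apart.

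**Figure D1:**
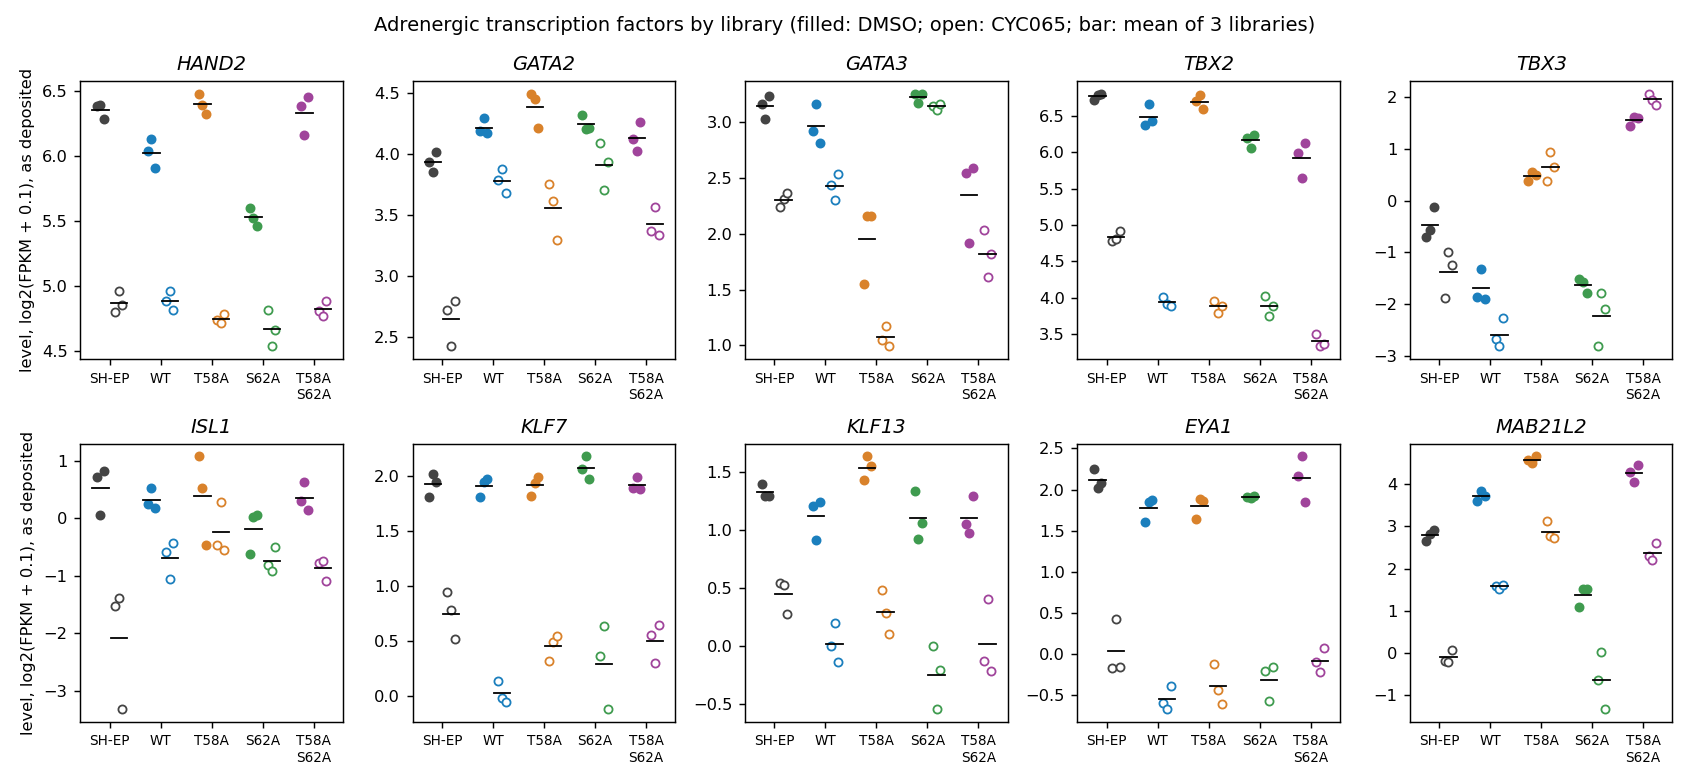
Level of each gene in every library on the log2(FPKM + 0.1) scale, as deposited, by line (SH-EP, WT, T58A, S62A, T58A S62A; y axis in log2 units, a separate range for each gene). Filled points are DMSO, open points CYC065 and short bars the mean of 3 libraries. HAND2, TBX2, KLF7, KLF13, EYA1 and MAB21L2 lie lower in CYC065 than in DMSO in every line, while TBX3 in T58A and T58A S62A does not.

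The first comparison asks whether forced MYCN changed the adrenergic TFs. On deposited FPKM, which measures a gene's share of the library, 9 members passed the filter on low values, a mean over the 30 libraries of 1 FPKM or more. ISL1 (mean 0.830 FPKM) did not pass, and TBX3 (mean 1.10 FPKM) passed through the groups where it is high, with 4 of 10 groups at or above 1 FPKM. With limma (Benjamini-Hochberg adjusted p under 0.05), 5, 4, 5 and 4 members differed from SH-EP in WT, T58A, S62A and the double mutant in turn. Over all 11575 genes tested, 54.2%, 54.2%, 54.3% and 55.3% passed in these lines, so that the members' 18 of 36 is close to the background. TBX3 had to differ between those groups to pass the filter, so its line differences are given as values only. Without it 14 of 32 passed. By direction, with TBX3 still counted, 2, 3, 1 and 2 members were higher, against 31.6%, 30.9%, 31% and 31.2% of all genes. Lower were 3, 1, 4 and 2, against 22.6%, 23.3%, 23.4% and 24.1%. All 4 comparisons share the 3 SH-EP libraries, so that they are not independent of one another. No member passed in the same direction in all 4 lines, whether counted by limma's adjusted p or by its unadjusted p under 0.05, against 19.2% of all genes higher and 13.4% lower in all 4 by adjusted p.

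HAND2, a basic helix-loop-helix factor that holds the noradrenergic program, was at 78.0, 83.4 and 83.9 FPKM in SH-EP. It was at 60.03, 65.6 and 70.0 FPKM in WT and at 44.1, 45.8 and 48.3 FPKM in S62A. Both groups lay below SH-EP without overlap. HAND2 was lower by 0.33 ± 0.08 (log2, SE; adjusted p = 0.000683 with limma) in WT and by 0.83 ± 0.08 (adjusted p = 1.82e-09) in S62A. In T58A (80.0, 84.1 and 89.3 FPKM) and the double mutant (71.7, 83.7 and 87.6 FPKM) the libraries overlapped those of SH-EP, with differences of 0.05 and -0.02 (95% intervals -0.11 to 0.20 and -0.17 to 0.14).

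GATA2, a GATA zinc finger factor, was at 14.3, 15.1 and 16.1 FPKM in SH-EP, at 17.9, 18.1 and 19.5 FPKM in WT, at 18.4, 21.8 and 22.4 FPKM in T58A and at 18.3, 18.4 and 19.8 FPKM in S62A. Each of these 3 lines lay above SH-EP. The log2 differences were 0.28 ± 0.11 (adjusted p = 0.0405 with limma), 0.45 ± 0.11 (adjusted p = 0.00179) and 0.31 ± 0.11 (adjusted p = 0.0244). The WT call was lost in 5 of 6 fits that left out 1 library (each WT library, and SH-EP replicates 1 and 2), with adjusted p up to 0.130, and the S62A call in 3 of 6 (S62A replicate 1, SH-EP replicates 1 and 2), with adjusted p up to 0.0885. In the double mutant GATA2 was at 16.1, 17.3 and 19.0 FPKM, its lowest library barely above the highest of SH-EP (16.14 and 16.07 FPKM), and the difference of 0.20 did not pass (95% interval -0.03 to 0.44).

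GATA3, its paralog, was at 8.05, 8.83 and 9.33 FPKM in SH-EP and at 2.82, 4.37 and 4.38 FPKM in T58A. In the double mutant it was at 3.67, 5.74 and 5.90 FPKM. Both lines with the T58A substitution lay below SH-EP without overlap, by 1.18 ± 0.16 (adjusted p = 7.2e-07 with limma) and 0.79 ± 0.16 (adjusted p = 0.000138) on the log2 scale. In WT (6.95, 7.46 and 8.88 FPKM) and S62A (8.89, 9.45 and 9.45 FPKM) GATA3 overlapped SH-EP and did not pass, with 95% intervals of -0.50 to 0.15 and -0.24 to 0.41.

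TBX2 and TBX3 are paralogous T-box factors, best known as repressors. TBX2 was at 105.1, 110.4 and 111.6 FPKM in SH-EP, at 82.8, 85.9 and 100.9 FPKM in WT and at 96.2, 104.5 and 110.1 FPKM in T58A. S62A was at 66.7, 73.3 and 74.9 FPKM and the double mutant at 49.8, 63.5 and 69.7 FPKM. WT, S62A and the double mutant lay below SH-EP, and T58A overlapped it. The differences were -0.28 ± 0.10 (adjusted p = 0.0153 with limma) in WT, lost without WT replicate 1 or 3 (adjusted p up to 0.0822), -0.61 ± 0.10 (adjusted p = 9.89e-06) in S62A and -0.85 ± 0.10 (adjusted p = 6.29e-08) in the double mutant. TBX3 was at 0.514, 0.572 and 0.820 FPKM in SH-EP, at 0.169, 0.175 and 0.300 FPKM in WT and at 0.189, 0.238 and 0.249 FPKM in S62A. In T58A it was at 1.20, 1.31 and 1.37 FPKM, and in the double mutant at 2.62, 2.93 and 2.97 FPKM. The 2 lines without T58A lay below SH-EP and the 2 with it above, with no overlap. The log2 difference of TBX3 from SH-EP was -1.23 ± 0.29 (SE) in WT, -1.16 in S62A, 0.94 in T58A and 2.02 in the double mutant.

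KLF7 and KLF13 (Krüppel-like zinc finger factors) and EYA1 (a transcriptional coactivator with phosphatase activity) passed in none of the 4 lines. In DMSO the libraries of all 5 lines lay between 3.40 and 4.43 FPKM for KLF7, between 1.78 and 3.002 FPKM for KLF13 and between 2.95 and 5.19 FPKM for EYA1. The log2 differences from SH-EP ran from -0.01 to 0.15, from -0.22 to 0.21 and from -0.34 to 0.03 in turn. EYA1 was at 3.95, 4.11 and 4.65 FPKM in SH-EP and lay below it without overlap in WT (2.95 to 3.57 FPKM), T58A (3.03 to 3.61 FPKM) and S62A (3.64 to 3.69 FPKM), though no difference passed (adjusted p = 0.114, 0.142 and 0.358 with limma). KLF13 lay below SH-EP (2.35 to 2.53 FPKM) without overlap in WT (1.78 to 2.27 FPKM) and above it in T58A (2.59 to 3.002 FPKM), and did not pass either. At this spread the 95% intervals for KLF7 lay between -0.32 and 0.46. ISL1, a LIM homeodomain factor, was at 0.941, 1.55 and 1.67 FPKM in SH-EP and between 0.552 and 2.01 FPKM in the MYCN lines, which overlapped it. In the fit without a filter on low values, ISL1 passed in none of the 4 lines (adjusted p from 0.204 to 0.883 with limma).

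MAB21L2, a mab-21 family regulator known from eye and neural development, differed from SH-EP in every MYCN line. It was at 6.21, 6.93 and 7.38 FPKM in SH-EP, at 12.05, 13.1 and 14.2 FPKM in WT and at 2.04, 2.75 and 2.76 FPKM in S62A. In T58A it was at 22.5, 23.8 and 25.1 FPKM, and in the double mutant at 16.4, 19.3 and 21.6 FPKM. Every group was separate from SH-EP. The log2 differences were 0.93 ± 0.21 in WT (adjusted p = 0.000586 with limma), 1.79 ± 0.21 in T58A (adjusted p = 1.14e-07), 1.46 ± 0.21 in the double mutant (adjusted p = 2.12e-06) and -1.42 ± 0.21 in S62A (adjusted p = 3.74e-06), so that S62A alone lay below SH-EP on deposited FPKM.

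**Figure D2:**
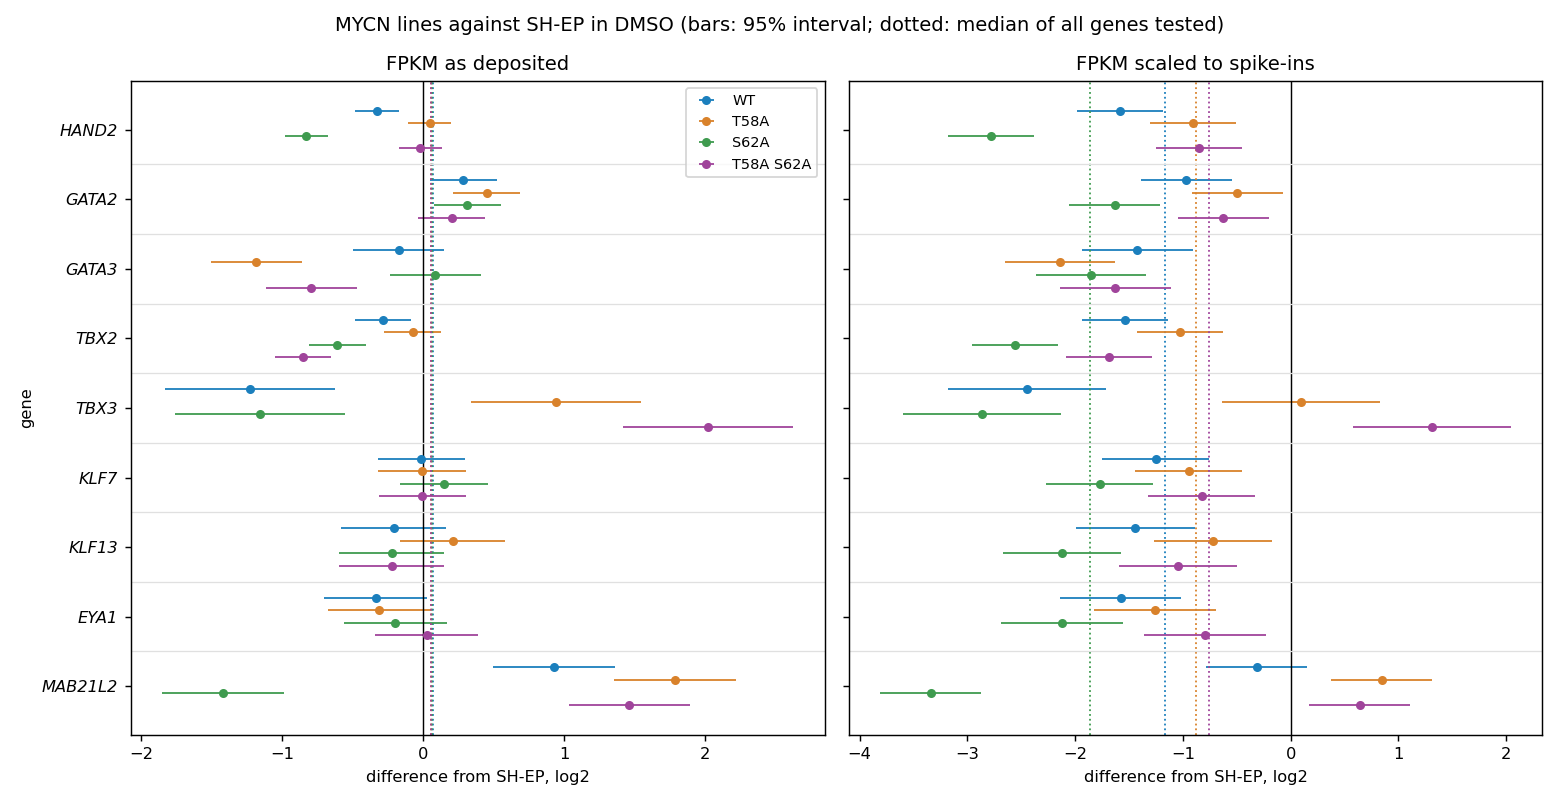
Log2 difference of each MYCN line from SH-EP in DMSO on the log2(FPKM + 0.1) scale, for the 9 genes that passed the filter, on deposited FPKM (left) and on FPKM scaled to spike-ins (right). Points are estimates from limma, bars 95% intervals and dotted lines the median of all 11575 genes tested in that line. On deposited FPKM 8 of the 18 passing differences are higher and 10 lower. On spike-in scaled FPKM 3 of 34 are higher and 31 lower, and the dotted lines lie between -1.86 and -0.75. These counts include TBX3, which passed the filter through the groups where it is high. Without it 14 of 32 pass on the left and 31 of 32 on the right.

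The picture depended on the scale. The ERCC spike-ins were added by cell number, so that scaling each library to them estimates RNA per cell rather than a share. The scaling factors varied within groups, at 1.20, 1.94 and 1.91 in T58A DMSO and at 1.13, 1.64 and 1.28 in WT DMSO, which limits the precision. On spike-in scaled FPKM 34 of 36 differences passed, 3 higher and 31 lower, and 31 of 32 passed without TBX3. The median of all genes moved from near 0 to -1.16 (WT), -0.88 (T58A), -1.86 (S62A) and -0.75 (the double mutant). Of all genes 89.5%, 79.5%, 95.4% and 72% passed (88.5%, 77.6%, 95% and 69.7% lower, and 0.994%, 1.87%, 0.389% and 2.27% higher). MAB21L2 stayed higher in T58A (0.85, adjusted p = 0.00178 with limma) and the double mutant (0.64, adjusted p = 0.0148), and TBX3 in the double mutant read 1.31. GATA2, higher on deposited FPKM, was lower than SH-EP in all 4 lines once scaled to spike-ins. MAB21L2 in WT turned to -0.32 and did not pass (adjusted p = 0.191), and TBX3 in T58A moved to 0.10. GATA2 read at -0.97 in WT, -0.50 in T58A and -1.63 in S62A.

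The MYCN lines were also compared among themselves. They differ in the phosphorylation sites, in the level of MYCN RNA (lowest in S62A) and in how each line was made, and these cannot be told apart. Over the 6 pairs of lines, 22 of 54 differences passed on deposited FPKM, and 17 of 48 without TBX3. In T58A against WT 4 of 9 members passed (23.6% of all genes), in S62A against WT 3 (24.1%) and in the double mutant against WT 4 (23.7%). In S62A against T58A 5 passed (32.8%), in the double mutant against T58A 2 (16.7%) and in the double mutant against S62A 4 (30.7%). The 6 DMSO libraries that carry T58A did not overlap the 6 of WT and S62A for HAND2, TBX3 and MAB21L2, which were higher, and GATA3, which was lower. Over all genes 3.64% were higher and 4.41% lower without overlap in that comparison. It was drawn after the values were seen, and it has no test.

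MAB21L2 in S62A lay 2.34 ± 0.21 below WT (log2; adjusted p = 1.2e-08 with limma) and 3.20 ± 0.21 below T58A (adjusted p = 1.99e-11), and in T58A 0.86 ± 0.21 above WT (adjusted p = 0.00397). TBX3 read 2.17 ± 0.29 higher in T58A than in WT, 3.25 higher in the double mutant than in WT and 1.08 higher in the double mutant than in T58A, again as values only. GATA3 was lower by 1.01 ± 0.16 in T58A (adjusted p = 4.46e-05) and by 0.62 ± 0.16 in the double mutant (adjusted p = 0.00506) than in WT. With spike-in scaling these last 2 read -0.72 and -0.20 and did not pass, while the MAB21L2 difference of T58A from WT still passed (1.16) and the 3 TBX3 differences read 2.54, 3.76 and 1.21.

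The second comparison asks how the adrenergic TFs responded to CYC065, and here spike-in scaled FPKM is used first, as in the methods of the study. Nearly every member fell in every line. All 9 tested members fell in SH-EP and in the WT, T58A and S62A lines, and 8 fell in the double mutant, where TBX3 changed by -0.66 (95% interval -1.39 to 0.08). That is 44 of 45 differences, against a background of 75.7%, 93.7%, 84.2%, 90.2% and 76.3% of all genes lower in the 5 lines, SH-EP first and then the MYCN lines in the same order. Without TBX3 it is 40 of 40. EYA1 passed the filter through its DMSO groups, so that a fall was favoured, and it is still in every count and median of this paragraph. Beside these shares of all genes, passing the threshold did not set the members apart, and the size of the fall is given instead. The median over the members was -2.54, -2.82, -2.60, -2.50 and -2.46 (log2), beside -1.06, -1.57, -1.08, -1.35 and -0.97 for all genes tested. For all 9 members the 3 CYC065 libraries lay below the 3 DMSO libraries in every line, as did 86.8%, 94.1%, 76.8%, 91.3% and 75.7% of all genes. In all 5 lines 8 members fell, against 69.4% of all genes. On deposited FPKM, where the median of all genes moved by only 0.06 to 0.15, 9, 9, 8, 7 and 8 of the 9 members fell in the 5 lines, 41 of 45 in all (39 of 40 without TBX3), against 33.5%, 34.2%, 33.3%, 34.6% and 34.2% of all genes.

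**Figure D3:**
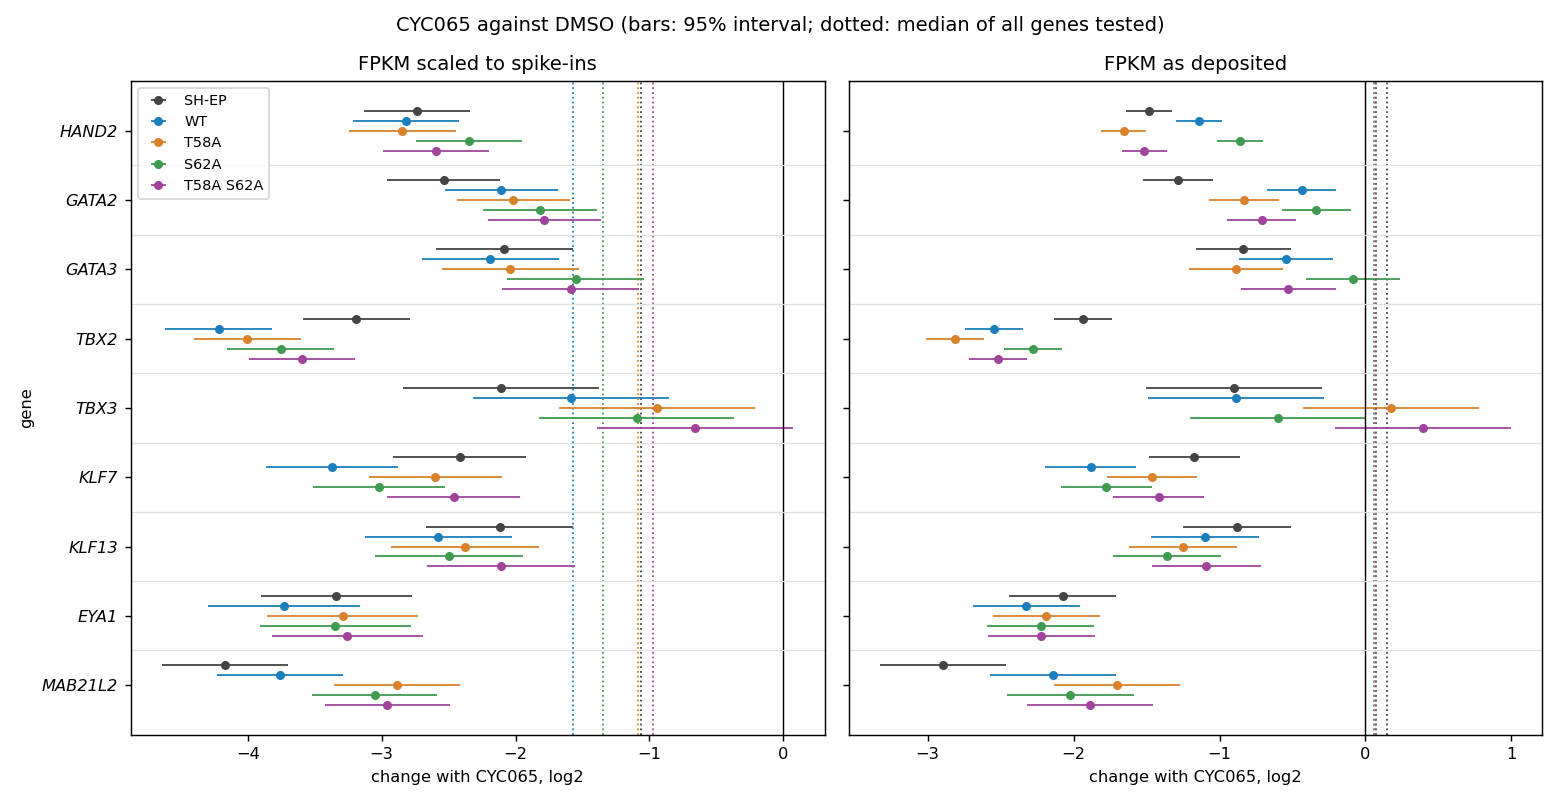
Log2 change with CYC065 against DMSO in each line on the log2(FPKM + 0.1) scale, on spike-in scaled FPKM (left) and deposited FPKM (right). Points are estimates from limma, bars 95% intervals and dotted lines the median of all genes tested in that line. TBX2, EYA1 and MAB21L2 have the lowest means over the 5 lines (-3.75, -3.39 and -3.37), and TBX3 (-1.28) lies nearest the dotted lines. EYA1 passed the filter on low values through its DMSO groups.

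TBX2 had the largest mean fall among the members, 3.75 on the log2 scale over the 5 lines. Its CYC065 libraries were at 27.3, 27.9 and 29.99 FPKM in SH-EP, at 14.7, 15.02 and 16.05 FPKM in WT and at 13.7, 14.7 and 15.5 FPKM in T58A, all as deposited. They were at 13.3, 14.7 and 16.2 FPKM in S62A and at 9.96, 10.2 and 11.2 FPKM in the double mutant. SH-EP thus kept the most TBX2 RNA under CYC065, with no overlap with the other lines. The changes ran from -4.22 ± 0.19 in WT (adjusted p = 1.49e-15 with limma) to -3.19 ± 0.19 in SH-EP (adjusted p = 9.29e-14), and from -2.82 to -1.94 on deposited FPKM.

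KLF7 and KLF13 fell in each of the 5 lines, and EYA1 read lower in each. EYA1 averaged 1 FPKM or more in 5 of 10 groups, all of them DMSO. It thus passed the filter through the groups where it is high, and its changes are given as values only. KLF13 averaged 1 FPKM or more in 7 of 10 groups, and less with CYC065 in WT, S62A and the double mutant. EYA1 was between 0.529 and 1.25 FPKM in the 15 CYC065 libraries, KLF7 between 0.824 and 1.83 FPKM and KLF13 between 0.584 and 1.35 FPKM, all below the DMSO ranges given above. The log2 changes ran from -3.73 to -3.26 for EYA1, from -3.37 to -2.42 for KLF7 and from -2.58 to -2.11 for KLF13.

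As deposited, the 15 CYC065 libraries held 23.1 to 31.1 FPKM of HAND2, against 44.1 to 89.3 FPKM in DMSO. On spike-in scaled FPKM they ran from 5.99 (S62A) to 44.7 (SH-EP), against 31.8 to 273.9 in DMSO. The changes ran from -2.85 in T58A to -2.35 in S62A. On deposited FPKM they ran from -1.66 to -0.86, and HAND2 fell in all 5 lines on that scale too.

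The GATA factors had smaller mean changes, -2.05 for GATA2 and -1.89 for GATA3. GATA2 was at 5.26, 6.51 and 6.83 FPKM in SH-EP with CYC065 as deposited, and between 9.68 and 16.9 FPKM in the MYCN lines, which did not overlap SH-EP. On spike-in scaled FPKM this order turned: SH-EP was at 7.55 to 9.25, WT (4.57 to 6.81) and S62A (3.35 to 5.33) lay below it, and T58A (7.04 to 9.38) and the double mutant (7.13 to 11.4) overlapped it. Its changes ran from -2.54 in SH-EP to -1.78 in the double mutant. GATA3 was at 4.63, 4.87 and 5.04 FPKM in SH-EP, at 4.83, 5.33 and 5.69 FPKM in WT, at 1.89, 1.97 and 2.16 FPKM in T58A, at 8.55, 8.77 and 8.88 FPKM in S62A and at 2.95, 3.43 and 3.996 FPKM in the double mutant. By group mean of deposited FPKM T58A was lowest and S62A highest, as in DMSO. With spike-in scaling SH-EP was highest in both treatments (27.9 and 6.49), and S62A was at 7.64 in DMSO and 2.55 in CYC065. The changes ran from -2.19 in WT to -1.55 in S62A, and in S62A GATA3 read -0.08 on deposited FPKM (adjusted p = 0.645 with limma).

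TBX3 was the exception in the T58A lines. As deposited it was at 0.171, 0.325 and 0.405 FPKM in SH-EP with CYC065, at 0.0425, 0.0572 and 0.107 FPKM in WT and at 0.0437, 0.136 and 0.190 FPKM in S62A. It was at 1.20, 1.47 and 1.81 FPKM in T58A and at 3.49, 3.74 and 4.07 FPKM in the double mutant, so that the CYC065 libraries of the double mutant lay above its DMSO libraries as a share of the library. With spike-in scaling the changes were -2.11 in SH-EP, -1.58 in WT, -1.10 in S62A and -0.94 in T58A (adjusted p = 0.0173 with limma), the last lost in 3 of 6 fits that left out 1 library (T58A DMSO replicates 2 and 3 and T58A CYC065 replicate 1; adjusted p up to 0.0687). On deposited FPKM TBX3 read 0.18 in T58A and 0.39 in the double mutant, and neither passed (adjusted p = 0.603 and 0.230). The low level of TBX3 in SH-EP, WT and S62A limits its precision, and the pseudocount of 0.1 FPKM understates its changes there.

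MAB21L2 was at 0.769, 0.782 and 0.955 FPKM in SH-EP with CYC065, at 2.77, 2.93 and 2.96 FPKM in WT and at 0.299, 0.540 and 0.922 FPKM in S62A, as deposited. It was at 6.49, 6.77 and 8.61 FPKM in T58A and at 4.49, 4.80 and 6.01 FPKM in the double mutant. As deposited, S62A and SH-EP overlapped and the other lines lay above both. With spike-in scaling S62A (0.0888 to 0.240) lay below SH-EP (1.10 to 1.12), which WT overlapped (1.07 to 1.30). The changes ran from -4.17 ± 0.23 in SH-EP (adjusted p = 1.53e-14 with limma) to -2.89 ± 0.23 in T58A (adjusted p = 2.25e-11). ISL1 was at 0, 0.246 and 0.280 FPKM in SH-EP with CYC065 and between 0.370 and 1.11 FPKM in the MYCN lines. In the fit without a filter on low values ISL1 was lower in all 5 lines (adjusted p from 5.67e-08 to 0.00341).

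The third comparison asks whether a MYCN line responded to CYC065 otherwise than SH-EP, through the difference between the 2 changes. On spike-in scaled FPKM 4 of 36 such differences passed (4 of 32 without TBX3), 1 in each line. TBX2 fell further in WT than in SH-EP, by 1.03 ± 0.27 on the log2 scale (adjusted p = 0.0273 with limma). MAB21L2 fell less than in SH-EP, by 1.28 ± 0.32 in T58A (adjusted p = 0.0254 with limma), by 1.21 ± 0.32 in the double mutant (adjusted p = 0.0215) and by 1.12 ± 0.32 in S62A (adjusted p = 0.0417). In S62A the spike-in scaled CYC065 libraries of MAB21L2 (0.0888 to 0.240) lay near the pseudocount of 0.1. The pseudocount understates the fall there and so enlarges the S62A difference. The background was 18.1%, 2.59%, 4.95% and 5.41% of all genes in the 4 lines. Each call was lost in some of the 12 fits that left out 1 library. TBX2 in WT lost it in 7 (each SH-EP DMSO library, SH-EP CYC065 replicates 1 and 2, WT DMSO replicate 2 and WT CYC065 replicate 3; -1.21 to -0.79 over the 12 fits, adjusted p up to 0.107). MAB21L2 in T58A lost it in 7 (each SH-EP DMSO library, SH-EP CYC065 replicates 2 and 3, and replicate 1 of T58A in both treatments; 1.06 to 1.43, adjusted p up to 0.0801). In S62A it was lost in 10, all but those without S62A DMSO replicate 2 or S62A CYC065 replicate 3 (0.92 to 1.34, adjusted p up to 0.151). In the double mutant it was lost in 4 (SH-EP DMSO replicate 3, the double mutant DMSO replicate 2 and CYC065 replicates 2 and 3; 1.05 to 1.39, adjusted p up to 0.0877). With the 21 spike-ins of at least 50 FPKM in place of 55, 0 of 36 passed by limma's adjusted p and 8 had an unadjusted p under 0.05. In the fit without a filter on low values, where 1 SH-EP CYC065 library is at 0, the response of ISL1 in S62A differed from that in SH-EP by 2.35 ± 0.64 (adjusted p = 0.0378 with limma). In the other lines it did not pass (adjusted p from 0.0646 to 0.142). The spike-in scaled CYC065 libraries of ISL1 were at 0.111 to 0.181 in S62A and at 0 to 0.402 in SH-EP. Both lay near the pseudocount of 0.1, so that the size of the S62A difference is uncertain.

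On deposited FPKM 16 differences passed. GATA2 fell less than in SH-EP in all 4 lines (0.85, 0.45, 0.95 and 0.57 in the order above; adjusted p from 0.000115 to 0.0450 with limma), while on spike-in scaled FPKM the same differences were 0.43, 0.52, 0.72 and 0.75 and none passed (adjusted p from 0.164 to 0.527). On deposited FPKM the background was 28.6%, 23.9%, 24.6% and 25.4% of all genes. TBX2 fell further than in SH-EP in WT, T58A and the double mutant (-0.61, -0.88 and -0.58) and MAB21L2 less in T58A, S62A and the double mutant (1.19, 0.87 and 1.01). KLF13 and EYA1 passed in no line on either scale, with 95% intervals on spike-in scaled FPKM that lay between -1.24 and 0.88.

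**Figure D4:**
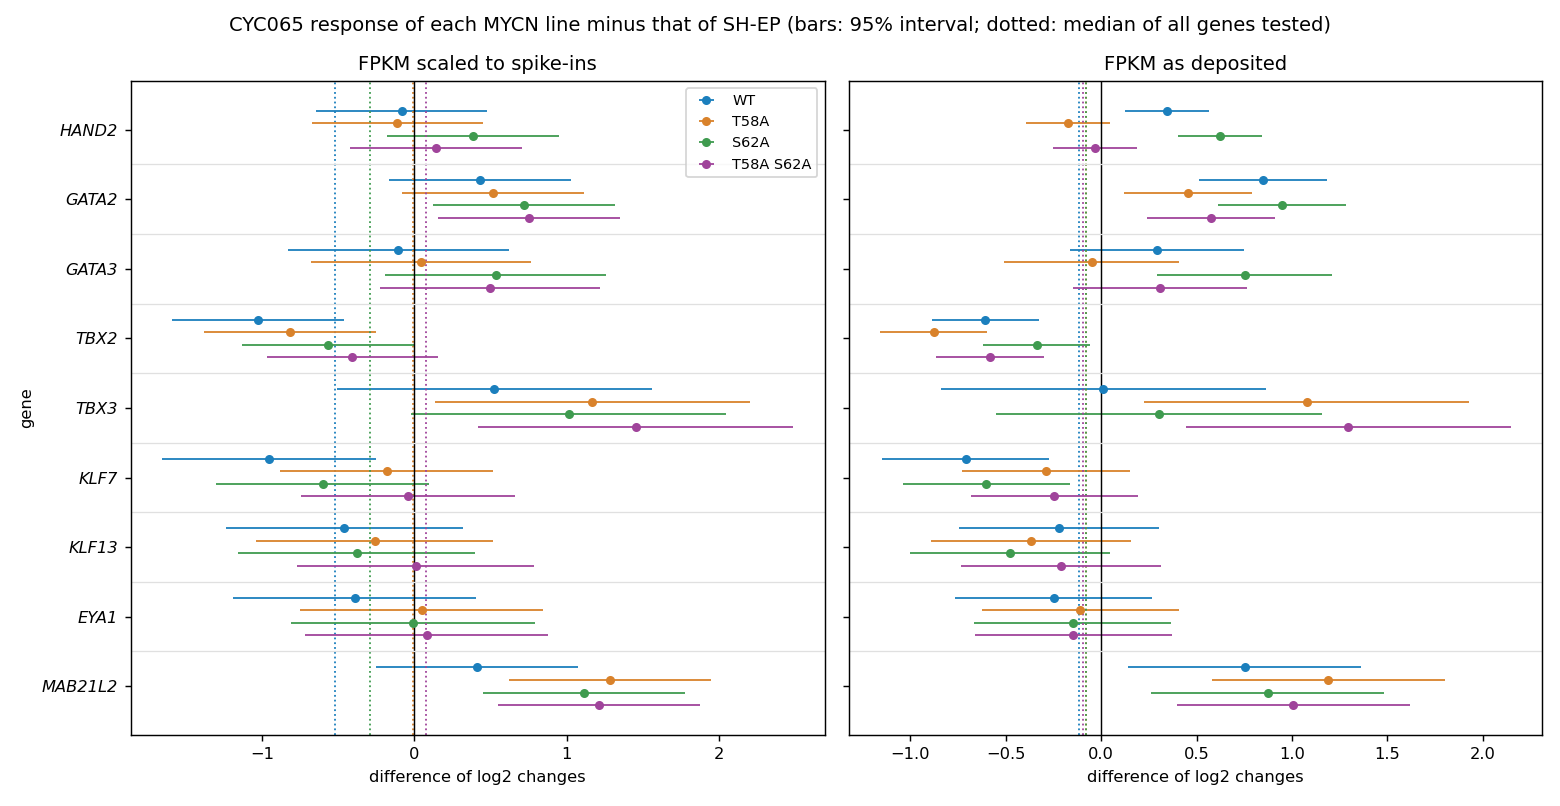
Difference between the CYC065 change in each MYCN line and that in SH-EP (log2 units, on the log2(FPKM + 0.1) scale), on spike-in scaled FPKM (left) and deposited FPKM (right). Points are estimates from limma, bars 95% intervals and dotted lines the median of all genes tested. TBX2 lies below 0 and MAB21L2 above 0 in every line on both scales, with 4 and 16 of all 36 differences passing on the left and on the right.

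Transcripts on the strand opposite to a member offer a comparison within the same locus, and the libraries were counted by strand. In GRCh37 HAND2 (chr4:174446120-174451380, minus strand) overlaps HAND2-AS1, a long noncoding RNA gene. GATA2 (chr3:128198270-128212044, minus strand) overlaps GATA2-AS1, GATA3 (chr10:8087341-8117161, plus strand) overlaps GATA3-AS1, and TBX2 (chr17:59477204-59486827, plus strand) overlaps TBX2-AS1. MAB21L2 (chr4:151503303-151505845, plus strand) lies inside LRBA, a protein-coding gene on the other strand. The comparison was drawn after the values were seen. The 15 DMSO libraries held 10.2 to 13.9 FPKM of HAND2-AS1 and the 15 CYC065 libraries 14.9 to 21.7 FPKM, as deposited. The ratio of HAND2 to HAND2-AS1 was 4.10 to 7.86 in DMSO and 1.26 to 1.97 in CYC065, and that of TBX2 to TBX2-AS1 was 4.30 to 7.09 and 0.441 to 1.30. Neither pair of ranges overlapped, and both ratios lie within a library and need no scaling between libraries. For GATA2 and GATA2-AS1 the ranges, 2.31 to 3.91 and 0.981 to 2.41, overlapped at their ends, and for GATA3 and GATA3-AS1 they overlapped widely (0.873 to 5.40 and 0.678 to 3.97). The ratio of MAB21L2 to LRBA ran from 0.351 to 3.11 in DMSO and from 0.0328 to 0.867 in CYC065. On spike-in scaled FPKM each of the 5 neighbours was lower with CYC065 in all 5 lines (limma), with log2 changes of -0.92 to -0.52 for HAND2-AS1, -1.59 to -0.58 for TBX2-AS1 and -0.73 to -0.47 for LRBA, while in the group means of deposited FPKM these 3 were higher in all 5 lines.

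**Figure D5:**
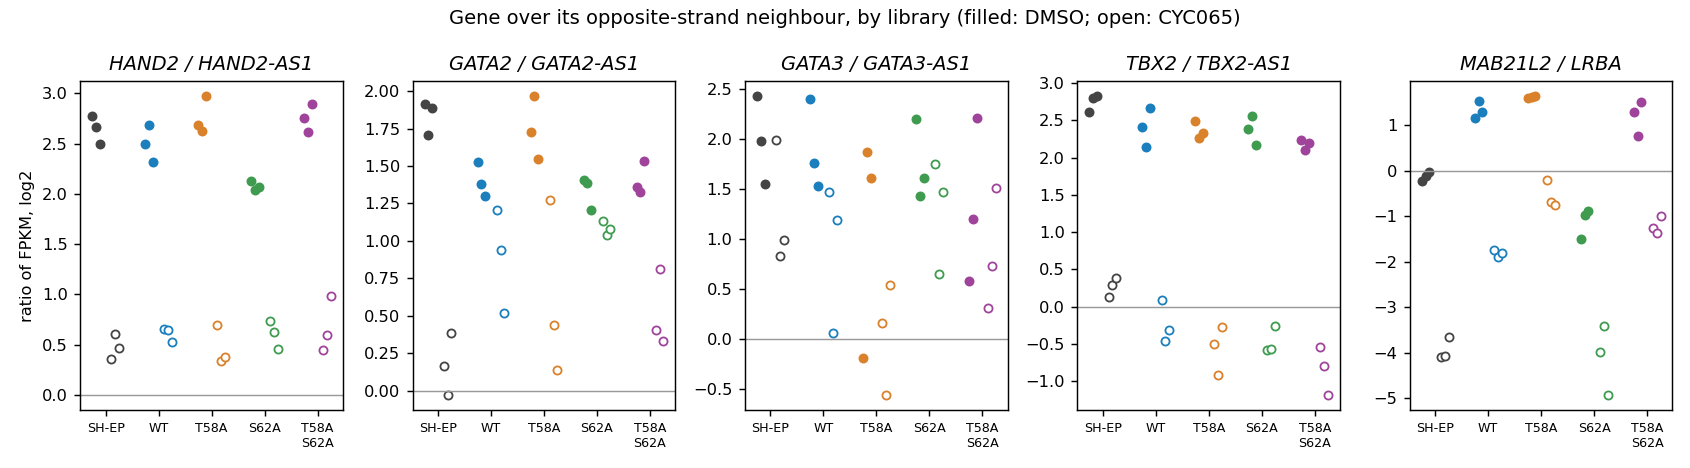
Ratio of each gene's FPKM to that of its opposite-strand neighbour in every library, on a log2 axis, by line. Filled points are DMSO and open points CYC065. For HAND2 and TBX2 the 15 DMSO libraries lie above the 15 CYC065 libraries (lowest DMSO ratios 4.10 and 4.30, highest CYC065 ratios 1.97 and 1.30), and for GATA3 they overlap.

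Genes that work with the adrenergic TFs were read from 4 lists. Their counts stand beside these shares of all genes tested. Against SH-EP in DMSO 30.9% to 31.6% were higher and 22.6% to 24.1% lower per line on deposited FPKM. With spike-in scaling 69.7% to 95% were lower than SH-EP per line, so that a lower value there is common to most genes. With CYC065 75.7% to 93.7% were lower per line, and 89 to 214 of the 11575 genes were higher. Where a list gene is also given on the other scale, its values and counts there are differences of group means, which were not tested. Of 26 sympathoadrenal genes 6 passed the filter on low values. Against SH-EP in DMSO (deposited FPKM), 3 were higher and 2 lower in WT, and 3 were higher and 3 lower in each of the other lines. SCG2, a secretory granule protein (78.3 ± 1.89 FPKM in SH-EP), was lower in all 4 lines (log2 differences of -2.70 to -0.16), and was below SH-EP on spike-in scaled FPKM too. GAP43, a growth cone protein, was lower in 3 of 4. GCH1, CHGB and CYB561 were higher in all 4 lines on deposited FPKM, while their spike-in scaled group means were above SH-EP in 2, 3 and 2 lines, CHGB being named after its values were seen. With CYC065 (spike-in scaled FPKM) 2, 6, 4, 3 and 4 of the 6 fell in the 5 lines, with none higher. CYB561, an electron carrier of catecholamine granules, fell in all 5 (mean -1.43), and GCH1, the first enzyme of the cofactor for catecholamine synthesis, in all 5 (mean -1.08), although on deposited FPKM they were above DMSO in 1 and 4 lines. SCG2 fell in 4 lines (mean -0.72) and was above DMSO in all 5 on deposited FPKM. The medians of the list lay between -1.21 and -0.51, beside -1.57 to -0.97 for all genes.

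Of 36 paralogs of the members 15 passed the filter. Against SH-EP in DMSO 6, 8, 7 and 7 were higher and 2, 2, 3 and 4 lower in the 4 lines. KLF16 was higher in all 4 lines (mean 1.12), while its spike-in scaled differences ran from -1.08 to 0.44. EYA4 was higher in all 4 (mean 0.66) and KLF2 in 3 (mean 0.65), while spike-in scaling left EYA4 above SH-EP in 0 lines and KLF2 in 1. With CYC065 10 to 12 of the 15 fell per line and 0 to 3 rose. The medians of this list lay between -2.02 and -1.24. GATA4, a GATA factor of heart and gut, had the largest mean fall (-4.07), followed by TBX18 (-2.69) and KLF9 (-2.35), each lower in all 5 lines, and on deposited FPKM KLF9 alone of these was above DMSO in 1. KLF6 was higher with CYC065 in 4 lines and KLF10 in 3, both named after their values were seen.

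Of 18 partners 13 passed the filter. Against SH-EP in DMSO 3, 3, 3 and 2 were higher and 4, 2, 4 and 4 lower in the 4 lines. ZFPM1, a cofactor of GATA factors (1.07 ± 0.325 FPKM in SH-EP), was higher in all 4 lines (mean 1.39; -0.25 to 0.47 with spike-in scaling). TCF3, an E protein that pairs with HAND2, was higher in all 4 (mean 0.60), whereas TCF4 and TCF12, the other E proteins of the list, named after their values were seen, were lower in all 4 (means -0.50 and -0.55). LDB2, a LIM domain-binding protein, was lower in 3 (mean -0.92). Spike-in scaling put TCF3 below SH-EP in all 4 lines. With CYC065 12 or 13 of the 13 fell in each line, and SIN3A, a corepressor scaffold (mean -3.74), and ZFPM1 (mean -2.97) fell in all 5. The partners' medians lay between -2.68 and -1.96, close to the -2.82 to -2.46 of the adrenergic TFs.

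Of 24 mesenchymal TFs 21 passed the filter. Against SH-EP in DMSO 5, 4, 3 and 5 were higher and 9, 8, 9 and 10 lower in the 4 lines. SNAI2 (21.3 ± 0.779 FPKM in SH-EP), PRRX1 (111.4 ± 5.33 FPKM) and ZEB1 (7.61 ± 0.118 FPKM) were lower in all 4 lines, with means of -1.26, -1.002 and -0.64. Spike-in scaling gave the same direction, but on that scale 69.7% to 95% of all genes were lower per line. FOSL1, higher in all 4 lines on deposited FPKM, was below SH-EP there too. With CYC065 18, 21, 20, 21 and 17 of the 21 fell in the 5 lines, by a median of -1.72 to -1.32, beside -2.82 to -2.46 for the adrenergic TFs. TWIST1 (mean -3.43) and SIX4 (mean -2.37) fell in all 5. The study's introduction, however, names TWIST1 beside HAND2 among the TFs of the adrenergic state, and SIX4 is also in the list of partners. The difference between the mesenchymal list and the adrenergic TFs was not tested.

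Over the 10 group means of spike-in scaled log2 FPKM, the genes with the pattern most like each member, among 8165 genes averaging 5 FPKM or more, were SYS1 and RBM22 for HAND2 (Pearson's r = 0.998 and 0.997), TRIM27 and RBM15B for GATA2 (0.997 and 0.997), and LACTB and EMP2 for GATA3 (0.983 and 0.976). For TBX2 they were ARHGEF2 and LARP4B (0.997 and 0.996), and for TBX3 HSPB7 and VGF (0.962 and 0.960). FAM13B and MKRN2 were nearest KLF7 (0.999 and 0.999), ABL1 and CENPF nearest KLF13 (0.998 and 0.998), ZZZ3 and NR2C1 nearest EYA1 (0.998 and 0.998), and CCDC58 and SPHK1 nearest MAB21L2 (0.990 and 0.990). The points share the DMSO and CYC065 split and the spike-in scaling, so that these values are a description.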

How the data were processed

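RNA-seq was measured in 30 libraries of 10 groups. The deposited values are FPKM, which the authors computed with Cufflinks (library type fr-firststrand) from reads aligned to hg19 with HISAT2, per the study's methods and the labels. The table gives no read counts, so depth is unknown in reads. From the steps of low values the libraries' relative depth was 0.423 to 1 in DMSO and 0.345 to 0.588 in CYC065, and 40.6% to 45.8% of genes were at 0. No columns belonged to other samples, and no pair of libraries held identical values; within-group correlations were 0.925 to 0.959 across genes. Columns carry a line and a treatment, but their last number differs from the labels' numbering, so each was assigned to its group, and replicate numbers here follow the columns.

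On the scale log2(FPKM + 0.1), limma 3.58.1 (R 4.3.3) was run as 1 fit over all 30 libraries with a coefficient per group and Benjamini-Hochberg adjustment over the 11575 genes averaging 1 FPKM or more. Lines were compared on deposited FPKM and CYC065 on FPKM scaled to the 55 of 92 ERCC spike-ins averaging 1 FPKM or more. Spike-ins took 1.99% to 9.36% of summed FPKM in DMSO and 2.70% to 15.2% in CYC065. Alternatives were the other scaling, centring on the median, pseudocounts of 0.01 and 1, no filter and one of 5 FPKM, a fit of only the groups compared, the 21 spike-ins of at least 50 FPKM, a fold of 1.5, and leaving out each library. The method was tested on simulated data.

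The members and the lists were chosen with earlier results of these data known. Genes named beside the members were MYCN, from each list the 3 with the largest mean change over the 4 MYCN lines or, with CYC065, over the 5 lines, and the 2 genes with the highest correlation to each member over the 10 group means. Some genes that this rule names are not reported here.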

Additional observations from a re-analysis of the deposited data

Results flagged for a closer look

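For 4 values the change with CYC065 was not the same in a MYCN line as in SH-EP, by limma's test of the difference itself (Benjamini-Hochberg adjusted p under 0.05). TBX2 differed by -1.03 in WT. MAB21L2 differed by 1.28 in T58A, by 1.12 in S62A and by 1.21 in T58A S62A. All 4 are on spike-in scaled FPKM, and none passed with the 21 most abundant spike-ins (8 of 36 had an unadjusted p under 0.05). For MAB21L2 in S62A the CYC065 libraries lay near the pseudocount of 0.1, which enlarges that difference.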

How the results depend on the processing

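The 18 of 36 line differences that passed became 34 with spike-in scaling and 16 to 18 when single libraries were left out. The 22 of 54 between MYCN lines ranged from 22 to 23 without single libraries. The 44 of 45 CYC065 changes became 25 of 25 with a filter of 5 FPKM, which leaves fewer members, and 43 to 44 without single libraries. The 4 of 36 CYC065 response differences became 16 on deposited FPKM, 17 with libraries centred on their median, 0 with 21 spike-ins and 0 to 5 without single libraries. Other settings kept these counts within 1.5 times. Over 1242 values of single members with 1 library left out, 43 lost and 10 gained the call. The sign turned in 69, none of which passed in either fit.

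With spike-in scaling, differences from SH-EP turned to -0.97 for GATA2 and -0.32 for MAB21L2 in WT, to -0.50 for GATA2, -0.91 for HAND2 and -0.72 for KLF13 in T58A, to -1.63 for GATA2, -1.85 for GATA3 and -1.77 for KLF7 in S62A, and to -0.80 for EYA1 and -0.63 for GATA2 in T58A S62A. Between lines they turned to -0.66 for GATA2 (S62A against WT), -0.86 for EYA1 and -0.82 for KLF7 (S62A against T58A), and 1.00 for GATA2, 0.23 for GATA3, 0.94 for KLF7 and 0.88 for TBX2 (T58A S62A against S62A). For CYC065, centring gave TBX3 0.25 in WT, 0.43 in T58A and 0.54 in S62A, and moved GATA3 in S62A from -1.55 to 0.087, and deposited FPKM gave TBX3 0.18 in T58A. The response difference of HAND2 in WT turned to 0.34 on deposited FPKM and 0.37 centred, and that of EYA1 in S62A to 0.95 with a pseudocount of 1. Centring sets the median of each library by construction, while spike-in scaling sets the median of the spike-ins and not that of the genes. The cause of these changes was not tested.

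TBX2 in S62A against WT lost its call without WT replicate 2 or S62A replicate 2. Depth limits ISL1 (mean 0.830 FPKM) and TBX3 in SH-EP, WT and S62A, where every library is under 1 FPKM. No paired analysis was possible because the table's columns do not carry the labels' replicate numbers.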
